A study of Mus musculus with 12 samples.

Results

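The 10 genes described here form the repressor and output arm of the circadian clock. They comprise the period genes (Per1, Per2 and Per3), the cryptochrome genes (Cry1 and Cry2), the genes of the PAR bZIP transcription factors (Dbp, Tef and Hlf) and the genes of the nuclear receptors REV-ERBα and REV-ERBβ (Nr1d1 and Nr1d2). They were matched by gene symbol to 10 of the 50563 genes of the count table, each symbol to a single gene identifier. The set was chosen by its place in the clock, but with the CTRL and DPAn-6 values of the same libraries already known, so the differences between these groups are given below as a description without p-values.

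RNA-Seq was performed on poly(A) RNA from brain cortex of 12 E4FAD mice, which carry human APOE4 on both alleles and 1 copy of the 5xFAD transgenes (labelled APOE4+/+, 5FAD-/+). CTRL mice (n = 7) were given vehicle, and DPAn-6 mice (n = 5) received docosapentaenoic acid of the omega-6 series by daily oral gavage. Both groups carried the same transgenes, so no comparison with mice lacking APOE4 or 5xFAD was possible. In 5xFAD mice the transgenes are driven by the neuronal Thy1 promoter. CTRL mice were 12 months (n = 2) or 14 months (n = 5) old, and DPAn-6 mice were 12 months (n = 2) or 14 months (n = 3) old. The labels give no sex for single mice, although the paper reports females and males in both groups. The time of day at which the cortex was collected is not given in the sources used here. Library totals were 15339098 to 19500154 counts in CTRL and 15208803 to 26520251 in DPAn-6.

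The mammalian clock is a transcriptional loop. BMAL1 (gene Arntl) pairs with CLOCK or NPAS2 and activates genes that carry E-boxes, among them the Per and Cry genes, whose proteins return to the nucleus and repress that pair. DBP, TEF and HLF activate genes through D-boxes, whereas REV-ERBα and REV-ERBβ repress Arntl through elements that the ROR receptors also bind. Many of these transcripts oscillate over the day in brain and in peripheral tissue, so that a cortex sample captures the phase at which it was taken.

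Promoter sequences show which of these elements lie close to the start sites. RefSeq windows (GRCm38.p6) of 250 bases before to 50 bases after the start were found for 9 of the 10 genes, in 11 windows. Per2 had no window. Both strands were searched for the E-box CACGTG, its variant CACGTT, the D-box TTATGTAA, the palindromic D-box TTACGTAA, the REV-ERB element core TAGGTCA and the cAMP response element TGACGTCA, none of which contains another. The windows of Per3, Cry1, Tef and Per1 are shown because they hold the D-box and E-box matches of the genes whose levels are compared below. Capitals mark the matches, and each window is written 5′ to 3′ on the strand of its gene.
Per3, chr4:151044616-151044915, minus strand: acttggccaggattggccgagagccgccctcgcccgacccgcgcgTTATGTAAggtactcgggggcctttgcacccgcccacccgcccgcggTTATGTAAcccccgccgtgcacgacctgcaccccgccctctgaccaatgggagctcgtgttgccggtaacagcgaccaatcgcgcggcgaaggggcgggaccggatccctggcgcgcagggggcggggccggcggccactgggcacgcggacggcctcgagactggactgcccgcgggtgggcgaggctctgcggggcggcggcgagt
Cry1, chr10:85185005-85185304, minus strand: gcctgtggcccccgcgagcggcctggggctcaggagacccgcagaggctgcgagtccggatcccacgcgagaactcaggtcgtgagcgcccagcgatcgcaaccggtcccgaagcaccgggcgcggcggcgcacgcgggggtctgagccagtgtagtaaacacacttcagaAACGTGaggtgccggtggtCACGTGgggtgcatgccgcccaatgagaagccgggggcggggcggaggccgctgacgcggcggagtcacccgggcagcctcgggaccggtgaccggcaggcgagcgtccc
Tef, chr15:81802423-81802722, plus strand: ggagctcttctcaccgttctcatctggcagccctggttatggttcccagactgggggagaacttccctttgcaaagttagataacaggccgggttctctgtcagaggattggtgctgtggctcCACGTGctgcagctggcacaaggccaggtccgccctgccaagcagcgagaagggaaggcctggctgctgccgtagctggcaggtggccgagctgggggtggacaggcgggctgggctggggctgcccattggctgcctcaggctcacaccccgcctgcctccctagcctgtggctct
Per1, chr11:69098699-69098998, plus strand: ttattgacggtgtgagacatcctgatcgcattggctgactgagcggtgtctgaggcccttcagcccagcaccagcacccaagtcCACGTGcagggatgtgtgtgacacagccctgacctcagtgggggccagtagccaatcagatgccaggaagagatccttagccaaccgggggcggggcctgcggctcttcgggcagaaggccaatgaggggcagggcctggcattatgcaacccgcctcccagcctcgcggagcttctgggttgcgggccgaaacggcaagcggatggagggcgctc

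The Per3 window held the D-box 2 times, at positions -205 and -158 from the start, while 0.938% of all 32851 windows held it at least once. An E-box was present in windows of Cry1 (position -60), Per1 (position -166) and Tef (positions -127 and -138 at its 2 starts), against 7.15% of all windows. The variant CACGTT was present for Cry1, Cry2 and Nr1d1, against 4.68%. The cAMP response element was present for Hlf at position -9, against 1.79%. No match to TTACGTAA (0.119% of all windows) or TAGGTCA (2.61%) was found in the 11 windows. The windows of Dbp and Nr1d2 held none of the 6 motifs, and neither did the other Per1 window, at chr11:69099902-69100201. These are matches of letters within 300 bases, and binding was not measured.

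All 10 genes were well expressed and passed the filter on low counts, with 219 (Cry1) to 9862 (Tef) reads per library. Per kilobase of exon, in FPKM averaged on the log2 scale over the 7 CTRL mice, Tef was the highest at log2 FPKM 5.80 ± 0.30 (SD), followed by Hlf at 5.75 ± 0.27 and Nr1d1 at 5.67 ± 0.22. Dbp stood at 5.15 ± 0.30, Cry2 at 4.76 ± 0.28, Per1 at 4.72 ± 0.29 and Nr1d2 at 4.21 ± 0.23. Per2 was at 3.54 ± 0.12, Per3 at 3.10 ± 0.24 and Cry1, the lowest, at 2.73 ± 0.31. Neighbours in this order overlapped in their CTRL ranges except Nr1d1 and Dbp, Nr1d2 and Per2, and Per2 and Per3. The output activators and REV-ERBα thus sat above the period and cryptochrome genes Per2, Per3 and Cry1 in level per length.

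**Figure D1:**
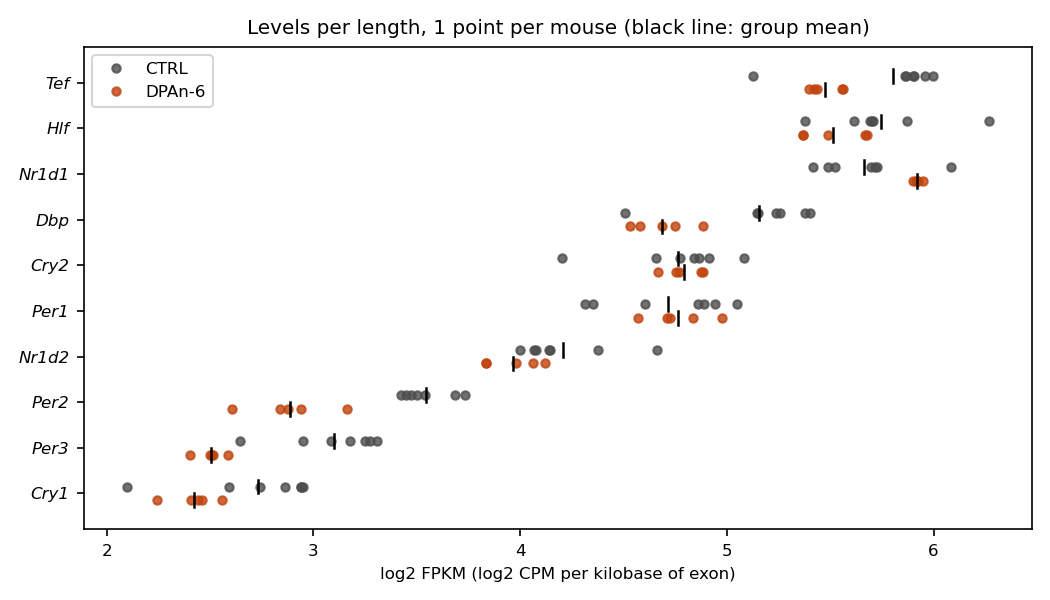
Level of each gene per length (log2 FPKM, x axis) in every mouse, with CTRL in grey, DPAn-6 in orange and group means as black lines. Tef, Hlf and Nr1d1 lie highest and Cry1 lowest, at a CTRL mean of 2.73.

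One library has to be named before the comparison. CTRL replicate 3 stood apart over all genes tested, with an SD of its log2 deviations from the group mean of 0.56 against 0.21 to 0.33 in the other 11 libraries. It had the highest summed level of astrocyte markers (11194 CPM, against 7137 to 8848 CPM in the other CTRL mice) and the lowest of inhibitory neuron markers among all 12 mice (625 CPM). It was the lowest CTRL mouse for Per3, Cry1, Cry2, Dbp and Tef and the highest for Hlf, Nr1d1 and Nr1d2. All mice enter the values below, and values without CTRL replicate 3 stand beside them. The part of this library's state in the results was not tested.

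Per2 and Per3 were lower in DPAn-6 than in CTRL in every mouse, and Dbp was also called lower. In edgeR's quasi-likelihood test across 15688 genes, 3 of the 10 genes were called at an adjusted p below 0.05, all of them lower, where 1.55% of all genes were called in either direction and 1.14% were called lower. Since the genes were proposed from this contrast, nothing is read from that count. Of the 10 genes, 8 had a log2 fold change below 0, as had 51.3% of all genes tested. Cry2 was among the 8, at -0.013 (SE 0.11). The median over the 10 genes was -0.32, against -0.0047 over all genes tested. For the same reason nothing is read from these values either. Values below are in log2 CPM.

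Per2 encodes a core repressor whose protein carries CRY into the nucleus. Its CTRL values ran from 5.97 through a median of 6.05 to 6.29, whereas the DPAn-6 mice had 5.71, 5.39, 5.43, 5.49 and 5.16. The groups did not overlap, and the level of all 5 DPAn-6 mice was below that of every CTRL mouse. The log2 fold change was -0.68 (SE 0.092), which is a fold of 0.626 on the linear scale. CTRL replicate 3 lay at the CTRL median of Per2 (6.05), and without it the log2 fold change was again -0.68 (SE 0.087).

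Per3, a period gene with a smaller part in the core loop, ran from 5.91 (CTRL replicate 3) through 6.44 to 6.57 in CTRL. The DPAn-6 mice had 5.67, 5.78, 5.77, 5.77 and 5.85, all below every CTRL mouse. The gap between the highest DPAn-6 mouse and CTRL replicate 3 was narrow, but the next lowest CTRL mouse stood at 6.22. The log2 fold change was -0.63 (SE 0.096), and it was -0.69 (SE 0.064) without CTRL replicate 3. Groups without overlap, with DPAn-6 lower, were found for these 2 of the 10 genes and for 1.49% of all genes tested. In the opposite direction the counts were 0 of the 10 genes and 1.73% of all genes.

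Per1, the period gene known for its induction by light and neuronal activity, showed no such difference. It ran from 6.81 through 7.36 to 7.54 in CTRL and stood at 7.33, 7.20, 7.47, 7.06 and 7.22 in DPAn-6, within the CTRL range. Its log2 fold change was 0.0055 (SE 0.13), and 0.040 (SE 0.12) without CTRL replicate 3. Of the 3 period genes, Per2 and Per3 were thus separated between the groups and Per1 was not.

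**Figure D2:**
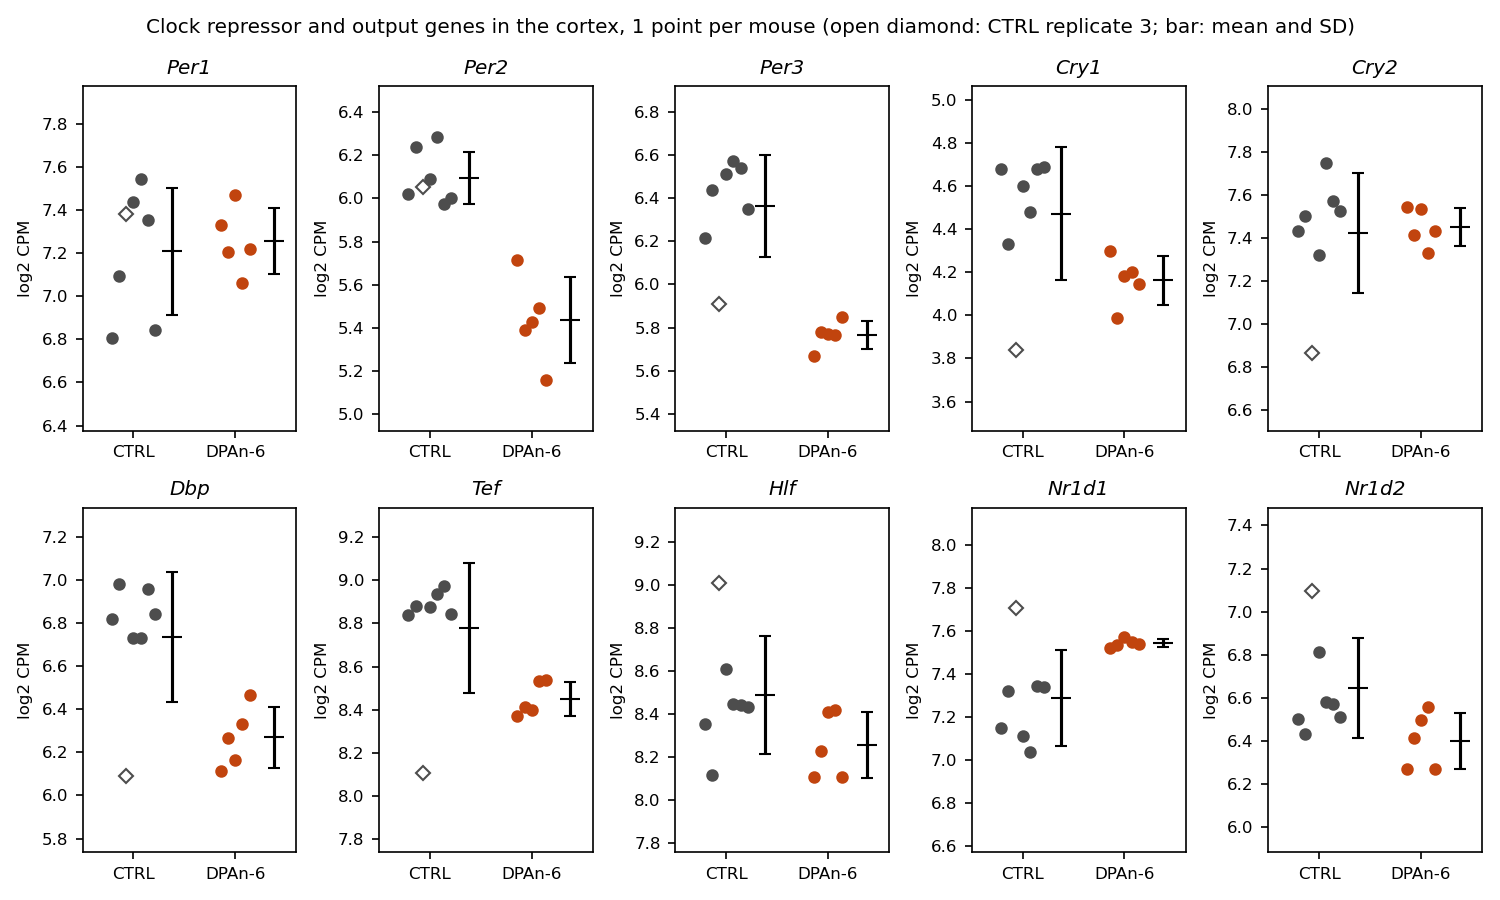
Level of each gene in every mouse (log2 CPM, y axis; each panel spans the same height) by group, with the mean and SD beside the points and CTRL replicate 3 as an open diamond. Per2 and Per3 separate completely, and for Cry1, Dbp, Tef and Nr1d1 the only CTRL mouse inside or beyond the DPAn-6 values is CTRL replicate 3.

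The cryptochrome genes encode the strongest repressors of CLOCK and BMAL1. Cry1 ran from 3.84 through 4.60 to 4.69 in CTRL and stood at 4.30, 3.99, 4.18, 4.20 and 4.15 in DPAn-6. The lowest CTRL value, that of replicate 3, lay below all DPAn-6 mice, and the other 6 lay above them, from 4.33. The log2 fold change of Cry1 was -0.35 (SE 0.12) and not called, and -0.43 (SE 0.079) without CTRL replicate 3. Cry2 ran from 6.86 through 7.50 to 7.75 in CTRL and stood at 7.54, 7.41, 7.54, 7.33 and 7.43 in DPAn-6, with a log2 fold change of -0.013 (SE 0.11), or -0.085 (SE 0.067) without CTRL replicate 3.

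Among the PAR bZIP genes, Dbp, a direct E-box target with one of the widest daily rhythms known, ran from 6.09 through 6.82 to 6.98 in CTRL. The DPAn-6 mice had 6.11, 6.27, 6.16, 6.33 and 6.47. CTRL replicate 3 lay below all of them and the other 6 CTRL mice, from 6.73 upwards, above all of them. The log2 fold change was -0.51 (SE 0.12), or -0.59 (SE 0.070) without CTRL replicate 3. Tef showed the same arrangement, with 8.10, 8.87 and 8.97 as the lowest, median and highest CTRL values and 8.37, 8.41, 8.40, 8.53 and 8.54 in DPAn-6. The log2 fold change of Tef was -0.37 (SE 0.11) and not called, and -0.46 (SE 0.049) without CTRL replicate 3. Hlf ran from 8.12 through 8.44 to 9.01 in CTRL and stood at 8.11, 8.23, 8.41, 8.42 and 8.11 in DPAn-6. The groups of Hlf overlapped, with a log2 fold change of -0.28 (SE 0.13) that was not called. Without CTRL replicate 3, the highest CTRL mouse for Hlf, it shrank to -0.16 (SE 0.081).

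The REV-ERB genes, whose products repress Arntl, did not point the same way. Nr1d1 ran from 7.04 through 7.32 to 7.71 in CTRL, and the DPAn-6 mice had 7.52, 7.54, 7.57, 7.55 and 7.54. These 5 values spanned a narrow range (SD 0.018, against 0.22 in CTRL and 0.13 in CTRL without replicate 3), and CTRL replicate 3 was the only CTRL mouse above them. The log2 fold change of Nr1d1 was 0.21 (SE 0.10) and not called, and 0.30 (SE 0.061) without CTRL replicate 3. Nr1d2 ran from 6.43 through 6.57 to 7.10 in CTRL and stood at 6.27, 6.41, 6.50, 6.56 and 6.27 in DPAn-6, with a log2 fold change of -0.28 (SE 0.12) that was not called. Without CTRL replicate 3 it shrank to -0.18 (SE 0.072).

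The counts depended on CTRL replicate 3. Without it 6 of the 10 genes were called, 5 lower (Per2, Per3, Cry1, Dbp and Tef) and 1 higher (Nr1d1), where 6.1% of the 15616 genes then tested were called. The groups of the same 5 genes then did not overlap with DPAn-6 lower (2.49% of all genes), nor did those of Nr1d1 with DPAn-6 higher (2.75% of all genes). The overlap count without this library was added after the data were seen. Leaving out any other single library did not add a gene to the 3 called, and over those 11 settings the calls of Per2 and Per3 held, while that of Dbp was lost in each of the 11.

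Per2 and Per3 were called in 23 of 25 alternative settings and Dbp in 6 of 25. All of these settings refit the same libraries that were known when the genes were proposed. Nothing is therefore read from how often a call was made. The calls of Per2 and Per3 were lost in the 14-month mice alone (log2 fold changes of -0.72 and -0.67) and with Ttr, a choroid plexus gene, as a covariate (-0.56 and -0.60). Summed choroid plexus markers ran from 13.5 to 1676 CPM in CTRL and from 7.90 to 24.1 CPM in DPAn-6, with 5 of 5 tested markers lower and 0 called.

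Summed levels of marker genes of other cell types were compared as a description. Over all genes tested, 1.55% were called and 51.3% had a log2 fold change below 0. Inhibitory neuron markers were at 625 to 765 CPM in CTRL and 779 to 911 CPM in DPAn-6, with 7 of 7 higher and 0 called, whereas microglia markers were at 942 to 1378 and 706 to 977 CPM, with 8 of 8 lower and 2 called. Meningeal fibroblast markers were at 80.8 to 109 and 51.7 to 88.4 CPM, with 6 of 6 lower and 3 called. Excitatory neuron markers of the cortex were present in every mouse (2115 to 2748 CPM in CTRL and 2401 to 2571 CPM in DPAn-6). Of the markers of the suprachiasmatic nucleus and hypothalamus, Nms and Six6 were at 0 in all mice, and the list summed to 37.7 to 46.4 CPM in CTRL and 43.0 to 55.2 CPM in DPAn-6. Only 2 of the 8 genes of this list passed the filter (both higher, 0 called). One of the 8, Vip, is also in the inhibitory neuron list, so the sum does not show tissue of these regions. No marker was called of the astrocyte list (7 of 8 lower), the oligodendrocyte list (7 of 8 higher), the striatum list (6 of 6 higher), the endothelial list (3 of 6 lower) or the red blood cell list (5 of 5 lower). The part of these cell types in the results was not tested, and in bulk tissue fewer cells of a type and less RNA per cell cannot be told apart.

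Some of these genes share exon sequence with a gene on the opposite strand, and the strand setting of the counting is not given in the sources used here. Dbp shares 539 exon bases (18.0% of its exons) with Sphk2, whose log2 fold change was 0.22 (SE 0.087, adjusted p = 0.258, edgeR), in the direction opposite to Dbp. Nr1d1 shares 263 bases (8.55%) with Thra, which had a mean of 13172 counts and a log2 fold change of -0.023 (SE 0.069, adjusted p = 0.924, edgeR). Tef shares 193 bases with Gm17597 (mean 17.5 counts) and Cry2 shares 295 with D930015M05Rik (mean 1.17 counts). Reads from the shared bases of such a pair cannot be told apart without strand.

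The other genes of the clock were examined as lists, which were also chosen with earlier results of these data known. Their counts and p-values are therefore a description. Over all genes tested, 1.55% were called, 1.49% had groups without overlap with DPAn-6 lower and 1.73% with DPAn-6 higher. Of 7 activators, 1 was called. Arntl rose, from 4.96 to 5.26 log2 CPM in CTRL to 5.60, 5.40, 5.56, 5.47 and 5.32 in DPAn-6, all above every CTRL mouse (log2 fold change 0.38, SE 0.077, adjusted p = 0.0240, edgeR). This call was made in 16 of 25 alternative settings. The settings that lost it included those without any one of CTRL replicates 1, 4 and 6 and DPAn-6 replicates 1, 3 and 4. Clock (log2 fold change 0.026, SE 0.14) and Npas2 (0.15, SE 0.073), the partners of BMAL1, were not called. The median of the 7 activators was -0.092.

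Of 9 other repressors and modulators, 1 was called, against 1.55% of all genes. Bhlhe41, whose product DEC2 competes at E-boxes, fell from a CTRL mean of 6.12 ± 0.15 to 5.66 ± 0.12 log2 CPM (log2 fold change -0.48, SE 0.087, adjusted p = 0.0134, edgeR), with all 5 DPAn-6 mice below every CTRL mouse. The call was made in 21 of 25 alternative settings, and the settings that lost it included the one without DPAn-6 replicate 3. Nfil3, which represses through D-boxes, had a log2 fold change of 0.48 (SE 0.13, adjusted p = 0.0834, edgeR) with all 5 DPAn-6 mice above every CTRL mouse, and it was named after its values were seen. The median of this list was 0.0015.

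None of 12 kinases and ubiquitin ligases that act on PER and CRY was called, and the smallest p was that of Fbxl21 (log2 fold change -0.34, SE 0.16). None of 7 tested output genes was called either, with the smallest p for Noct (0.25, SE 0.066, adjusted p = 0.0816, edgeR), which encodes nocturnin. The medians of these lists were 0.036 and -0.021. Because neuronal activity and glucocorticoids also act on Per genes, lists for both were included. No activity gene of 10 was called (smallest p for Fosb, 0.44, SE 0.14, list median 0.15). An unadjusted p below 0.05 by edgeR was found for 3 of them and for 2280 of all 15688 genes, and 8 of the 10 lay above 0. Of 10 glucocorticoid response genes, 1 was called, against 1.55% of all genes. This was Plin4, with a log2 fold change of -1.42 (SE 0.29, adjusted p = 0.0240, edgeR), and the list median was -0.057. In this list 4 genes had an unadjusted p below 0.05 by edgeR, and 6 of the 10 lay below 0. Plin4 codes for a lipid droplet protein, and its call was made in 19 of 25 alternative settings. The settings that lost it included those without any one of 3 libraries (CTRL 1, DPAn-6 4 and DPAn-6 5).

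**Figure D3:**
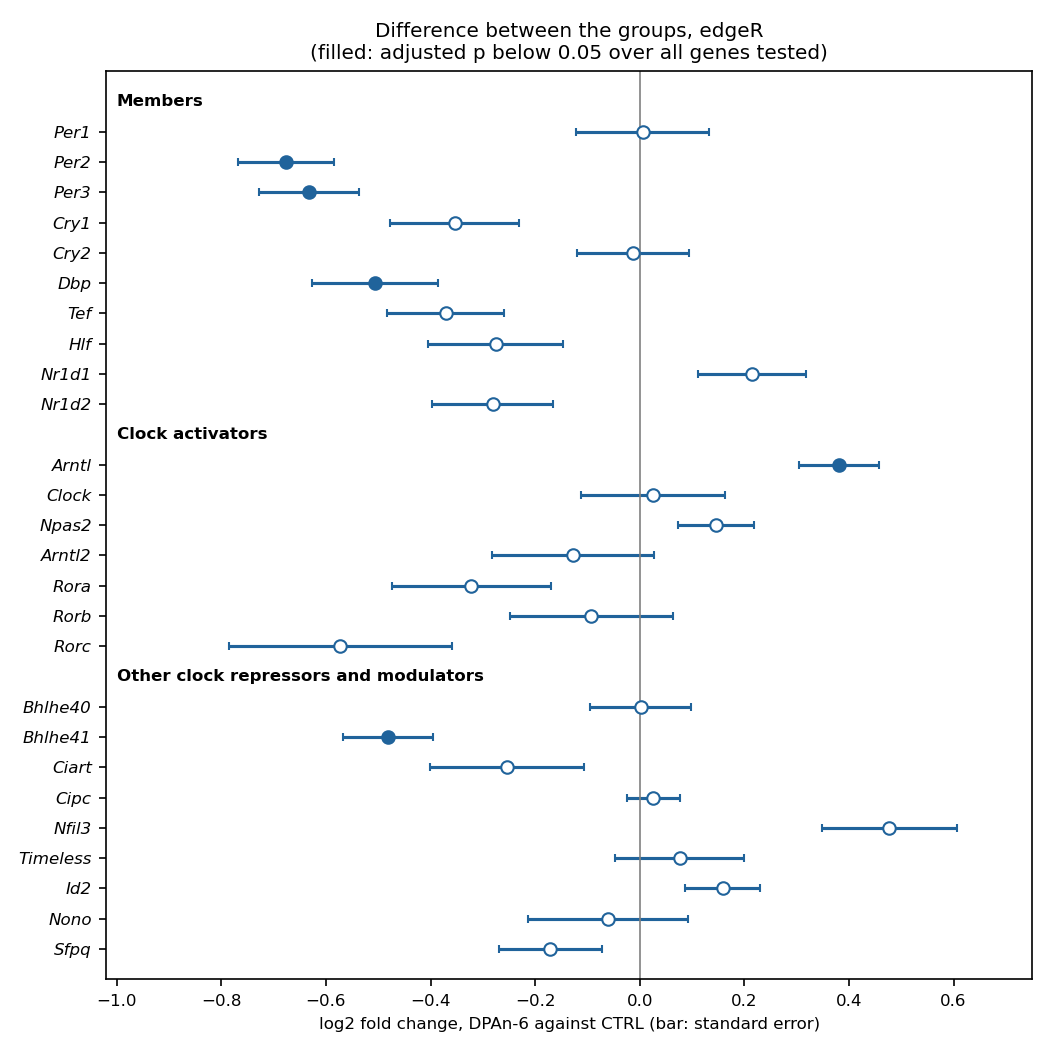
Log2 fold change of DPAn-6 against CTRL (x axis, points) with its standard error (bars) for the 10 genes, the clock activators and the other clock repressors; filled points passed an adjusted p of 0.05 over all genes tested. Per2, Per3, Dbp and Bhlhe41 lie below 0 and Arntl above it, at 0.38.

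Age, which played no part in choosing the genes, could be tested. None of the 10 genes was called between 14 and 12 months with the group as a covariate, and neither was any other gene (0% of 15688 genes by edgeR and 0 by DESeq2 and limma-voom, with 279 genes at an unadjusted p below 0.05). The largest difference was that of Per1, at 0.27 (SE 0.12, unadjusted p = 0.0441, edgeR), with CTRL means of 6.83 at 12 months and 7.36 at 14 months and DPAn-6 means of 7.27 and 7.25.

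The difference between the groups was also compared between the ages. None of the 10 genes was called for the interaction, and 0.00637% of all genes (a single one, Pcdha8, named after its value was seen) were. For Per2 the DPAn-6 minus CTRL difference was -0.55 at 12 months and -0.71 at 14 months, and for Per3 it was -0.51 and -0.63. Dbp differed by -0.58 and -0.42, and Tef by -0.38 and -0.31. Cry1 differed by -0.49 and -0.24, Nr1d1 by 0.32 and 0.23, and Cry2 by -0.046 and 0.062. These group differences come from the libraries known when the genes were proposed, so nothing is read from their direction at either age. Per1 differed by 0.44 at 12 months and by -0.11 at 14 months (interaction -0.60, SE 0.19, adjusted p = 0.905, edgeR). Hlf and Nr1d2 stood near 0 at 12 months (0.018 and 0.019) and at -0.38 and -0.38 at 14 months, with unadjusted p of 0.112 and 0.0747 for the interaction by edgeR. With 2 mice per group at 12 months, the interaction was estimated with standard errors of 0.19 to 0.27.

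**Figure D4:**
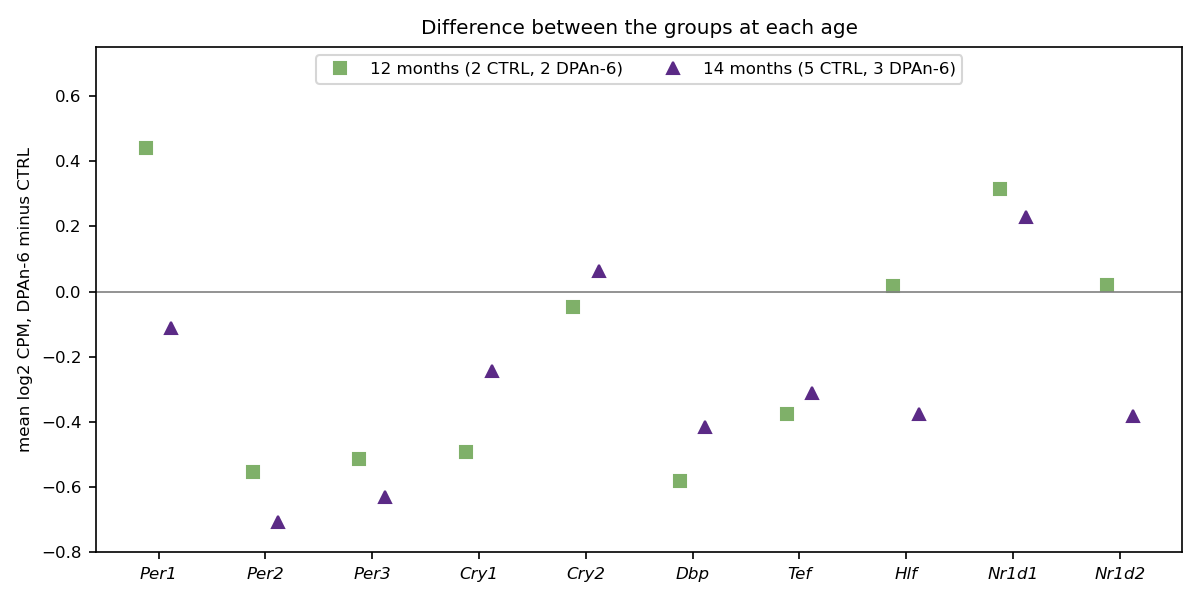
Difference of the mean log2 CPM between DPAn-6 and CTRL (y axis) at 12 months (squares, 2 and 2 mice) and 14 months (triangles, 5 and 3 mice) for each gene. Per2, Per3, Cry1, Dbp and Tef lie below 0 at both ages and Per1 changes side, from 0.44 to -0.11.

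How the genes varied together from mouse to mouse inside the groups was independent of the group means. Each group was centred on its mean, and 45 pairs were tested by permutation within groups (two-sided, 100000 resamples) with Benjamini-Hochberg adjustment. Adjusted p was below 0.05 for 2 pairs. Hlf and Nr1d2 had r = 0.964 (permutation p = 1e-05, the smallest these permutations give, adjusted p = 0.00045) and rho = 0.923 (permutation p = 1e-05). Per3 and Tef had r = 0.898 (permutation p = 0.00022, adjusted p = 0.00495) and rho = 0.846 (permutation p = 0.00071). When the 2 most extreme mice for the first gene of the pair (by distance from its median after centring) were left out, r was 0.948 for Hlf and Nr1d2 and 0.631 for Per3 and Tef. This choice of mice on centred values was added after the data were seen. On uncentred values, where CTRL replicate 3 stayed in for Per3 and Tef, r was 0.898 and 0.892.

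In all 12 mice Per3, Tef, Dbp, Cry1 and Cry2 were positively related to each other and negatively to Nr1d1, Nr1d2 and Hlf, while Per1 and Per2 stood aside. This arrangement rested on CTRL replicate 3. Without it no pair passed the adjusted threshold (lowest adjusted p = 0.0918 by permutation), the median size of r went from 0.588 to 0.278, and 27 of 45 pairs kept their sign. Hlf and Nr1d2 were still at r = 0.911, and Per3 and Tef at 0.659. The sizes were also like those between each gene and all genes. For Tef the median size of r was 0.654 with all 11453 genes and 0.799 with the other 9, and for Hlf these were 0.672 and 0.554. Without CTRL replicate 3 they were 0.18 and 0.14 for Tef, 0.46 and 0.27 for Hlf, and 0.48 and 0.33 for Nr1d2. The order was reversed for Per1 (0.26 and 0.36), Per2 (0.22 and 0.30) and Dbp (0.28 and 0.37) without this library.

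With the activators, 3 of 30 pairs passed. Clock was positively related to Hlf, with r = 0.929 (permutation p = 0.0004, adjusted p = 0.006) and rho = 0.839 (permutation p = 0.00118). It was likewise related to Nr1d2, with r = 0.916 (permutation p = 0.00028, adjusted p = 0.006) and rho = 0.825 (permutation p = 0.00357). To Dbp it was negatively related, with r = -0.857 (permutation p = 0.00331, adjusted p = 0.0331) and rho = -0.713 (permutation p = 0.0161). With the 2 most extreme mice by centred values left out these r were 0.687, 0.661 and -0.484, and by uncentred values 0.835, 0.661 and -0.781. Without CTRL replicate 3 they were 0.830, 0.792 and -0.603, and none of the 30 pairs passed (lowest adjusted p = 0.0905 by permutation). Dbp and Arntl had r = -0.771 (adjusted p = 0.0501 by permutation).

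**Figure D5:**
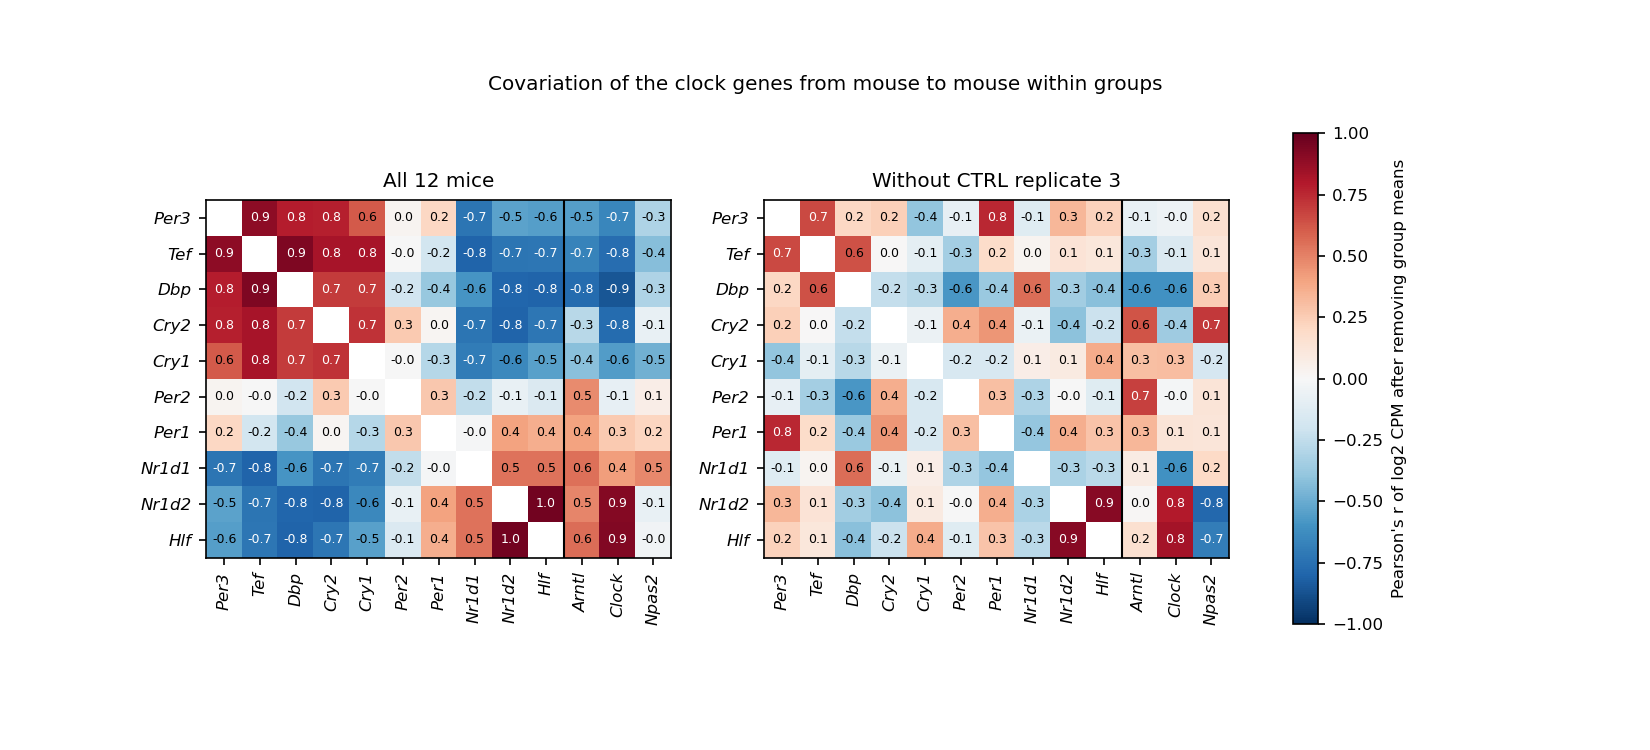
Pearson's r between the genes from mouse to mouse after removal of group means (colour, from -1 in blue to 1 in red) in all 12 mice (left) and without CTRL replicate 3 (right), with Arntl, Clock and Npas2 right of the line. The blocks on the left, where the median size of r is 0.588, largely fade on the right, where it is 0.278. On the right, r between Hlf, Nr1d2 and Clock is 0.792 to 0.911, and no pair there passed the adjusted threshold.

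Over the 12 mice, the genes with the highest mean centred r with the 10 genes, of 11444, were Tbc1d24, Mir22hg, Phlpp2, Frmd6 and Mfsd4a (0.27 to 0.28). Those with the lowest were Megf10, Lgals9, Rida, Mtus1 and Lgals3bp (-0.29 to -0.27). Without CTRL replicate 3 these means were 0.27 to 0.31 and -0.31 to -0.26. Some of the 10 genes were negatively related to each other, so a mean over all of them partly cancels. The library number in the labels, of unstated meaning, was not related to any of the 10 genes at an adjusted p below 0.05 (largest r = 0.547, for Per3, with permutation p = 0.116 and adjusted p = 0.738; rho = 0.503, permutation p = 0.158).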

How the data were processed

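Cortex poly(A) RNA of 7 CTRL and 5 DPAn-6 mice was analysed from the deposited table of raw gene counts, which the authors made with STAR 2.5.3a (submitters' processing notes) on GRCm38. Symbols, positions and exon lengths came from the GENCODE annotation of that build. The 10 genes and the gene lists were chosen with earlier results of these data known. Genes passing filterByExpr were fitted with edgeR 4.0.16 (TMM, quasi-likelihood test, Benjamini-Hochberg adjustment over all genes tested, threshold 0.05). Each SE of an edgeR log2 fold change is the size of that change divided by the square root of the test's F statistic. DESeq2 1.42.0 and limma 3.58.1 were alternatives. Levels are log2 CPM with a pseudocount of 0.5. Correlations used log2 CPM centred within groups, with permutation tests (scipy 1.17.1 and numpy 2.4.6). The scripts were tested on simulated data. The labels name separate samples but not litters or cages, so p-values measure only the spread between these samples.

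Genes named are the 10 genes, list genes past the adjusted threshold or else the one with the smallest p of a list, Arntl, Clock and Npas2, the 5 genes with the highest and the 5 with the lowest mean centred r (mean of at least 100 counts), genes sharing exon bases on the other strand, and covariates. Nfil3 and Pcdha8 fall outside this rule and were named after their values were seen. Rows of the promoter table were matched by symbol.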

Additional observations from a re-analysis of the deposited data

Results flagged for a closer look

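CTRL replicate 3 was far from the other 6 CTRL mice for 3 genes by Dixon's criterion, with Cry1 at 3.84, Dbp at 6.09 and Tef at 8.10 log2 CPM. These were 3 of 20 sets of values examined (10 genes in each of 2 groups), all from the same library, and chance alone flags about 1 set in 20. This library stood apart over all genes, as described above, and the cause was not tested.

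The difference of Per1 between DPAn-6 and CTRL was lower at 14 months than at 12 months by 0.60 on the log2 scale (interaction of -0.60, SE 0.19, unadjusted p = 0.00717, adjusted p = 0.905, edgeR). Over all genes 4.26% had an unadjusted interaction p below 0.05. Both 12-month DPAn-6 mice (7.47 and 7.06) were above both 12-month CTRL mice (6.81 and 6.84), whereas the groups overlapped at 14 months.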

How the results depend on the processing

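The number of genes called between DPAn-6 and CTRL was 243, and it moved to 696 with DESeq2, 1267 with limma-voom with sample weights, 9 in 14-month mice alone and 17 with Ttr as a covariate. With Xist as a covariate 258 genes were called. Leaving out 1 library gave 64 (without DPAn-6 replicate 3) to 953 (without CTRL replicate 3). With the replicate number as a replicate block 79 genes were called, but the numbers did not pair the samples (correlations of deviations of -0.12 to 0.22 over 5 numbers). The interaction count of 1 became 18 with DESeq2, 13 without the filter and 0 to 13 with 1 library left out. No gene was called for age in any setting. The 2 pairs of the 10 genes became 1 with age removed and 0 to 4 with 1 library left out. The 3 pairs with activators became 1 by Spearman's rho, 1 with age removed and 0 to 5 with 1 library left out. The 0 relations with the library number stayed at 0. All 250 fold changes of the 10 genes under alternatives lay within 1 within-group SD of those reported. Over 25 alternatives the signs of Per1 (7 negative, 18 positive) and Cry2 (12 negative, 13 positive) varied. Leaving out Gm42418 was added after the data were seen (244 called).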
